A study of Mus musculus with 109 samples.

Results

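Neurotrophin and insulin-like growth factor (IGF) receptors and ligands were examined in single cells of a preparation of mouse cerebellar granule cell progenitors (GCPs). The paper read some clusters of these cells as granule cells rather than progenitors. The members were chosen by name: the neurotrophin ligands Bdnf and Ntf3, their receptors Ntrk2, Ntrk3, Ngfr and Sort1, the IGF receptor Igf1r, and the receptor substrates Irs1 and Irs2. Of these 9 genes, 8 were among the 15973 genes of the count table. Bdnf was not analysed here. The cells were prepared from cerebella of C57BL/6 mice at postnatal day 7 by Percoll density gradient centrifugation, captured on 96-well microfluidic chips, and sequenced one by one. The 109 cells fell into 6 library groups by their labels, of 19 cells in group 1 and 18 cells in each of the others. The mice carried no labelled allele and received no labelled treatment, so the classes compared were made from the cells themselves. The labels name no animals, and p-values over library groups therefore measure only the spread between these groups, which may be technical.

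GCPs divide in the outer part of the early postnatal external granule layer, then leave the cell cycle, switch on genes such as Dcx and migrate inwards as granule cells (GCs). BDNF and NT-3, the products of Bdnf and Ntf3, act through the tyrosine kinase receptors TrkB (Ntrk2) and TrkC (Ntrk3). The p75 receptor (Ngfr) binds all neurotrophins, and sortilin (Sort1) is its partner for the unprocessed forms and a sorting receptor of the secretory pathway. IGF1 is a survival and growth factor for GCPs, and its receptor (Igf1r) signals through the adaptor proteins IRS1 and IRS2.

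Cells with Mki67, a gene of the cell cycle, at 100 CPM or more (counts for each 1000000 counts of the cell) were called Mki67-high (32 cells), and cells with Mki67 under 10 CPM were called Mki67-low (75 cells). The 2 remaining cells lay between. Dcx-high cells (55) had Dcx at or above the median of all cells, 934.5 CPM, and Dcx-low cells (54) had less. Both splits overlapped, since 25 of the 32 Mki67-high cells were Dcx-low and 46 of the 75 Mki67-low cells were Dcx-high. Total counts per cell ran from 15071 to 8616017 with a median of 3604792. Median depth was 4157697.5 counts in Mki67-high and 3580460 in Mki67-low cells, with a median of 4967.5 and 4193 genes detected. The granule lineage genes Neurod1, Zic1, Meis1 and Pax6 reached 10 CPM in 105, 97, 90 and 85 cells. Cntn2, Rbfox3, Zic2 and Barhl1, also of this lineage, did so in 69, 65, 46 and 34. Atoh1, the defining gene of dividing GCPs, did so in 11. Some genes of other cell types reached 10 CPM as well. The astroglial genes Slc1a2, Sox9, Slc1a3, Fabp7 and Gja1 did so in 52, 47, 31, 16 and 13 cells. Further ones were Pdgfra (32 cells) and Mbp (24) of the oligodendrocyte lineage, Eomes (19) of unipolar brush cells and Gad1 (14) of inhibitory interneurons. Others were rarer, such as Olig2 (5) and Gad2 (4). Of the 10 astroglial genes listed, 5 or more reached 50 CPM in 6 cells, of which 4 were Mki67-high. In 2 cells over 10000 genes were detected, and both were Mki67-high.

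The members differed in how many cells carried them. Igf1r was the most widespread, with at least 1 count in 78 cells (71.6%, Wilson 95% interval 62.5 to 79.2) and 10 CPM or more in 51 cells (46.8%, 37.7 to 56.1). Sort1 was found in 76 cells and at 10 CPM or more in 39. Ntrk2 was found in 58 cells, at 10 CPM or more in 24. Ngfr had a count in 43 cells but reached 10 CPM in only 12, and 25 of those cells held 1 to 5 counts. Irs1 reached 10 CPM in 16 of 33 cells with a count, Irs2 in 7 of 23, Ntrk3 in 5 of 13 and Ntf3 in 3 of 3. Cells with a count were unevenly spread over library groups. Irs2 had a count in 3 of 4 Mki67-high and 11 of 15 Mki67-low cells of group 1, but in 0 of 4 and 0 of 12 of group 2. Ngfr had a count in 3 of 4 and 9 of 12 such cells of group 2, but in 0 of 3 and 0 of 15 of group 4. The highest Irs2 cell lay in group 1 and the highest Ngfr cell in group 2. A link was not tested. Intervals cover counting error only.

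The highest Sort1 cell held 3129 CPM, the highest Ngfr cell 2913 CPM, the highest Irs2 cell 2250 CPM and the highest Ntrk2 cell 1963 CPM. All 4 of these cells were Mki67-low. The sums were therefore led by a few cells. The top 3 cells held 95.7% of all Ntrk3 counts and 95.5% of all Irs2 counts, against 27.0% for Igf1r, the member most evenly spread. No more than 1 member reached 10 CPM in most cells: 19 cells had none, 47 had 1, 27 had 2, 12 had 3 and 4 cells had 4 or more, among them both cells with over 10000 genes (5 and 6 members).

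**Figure D1:**
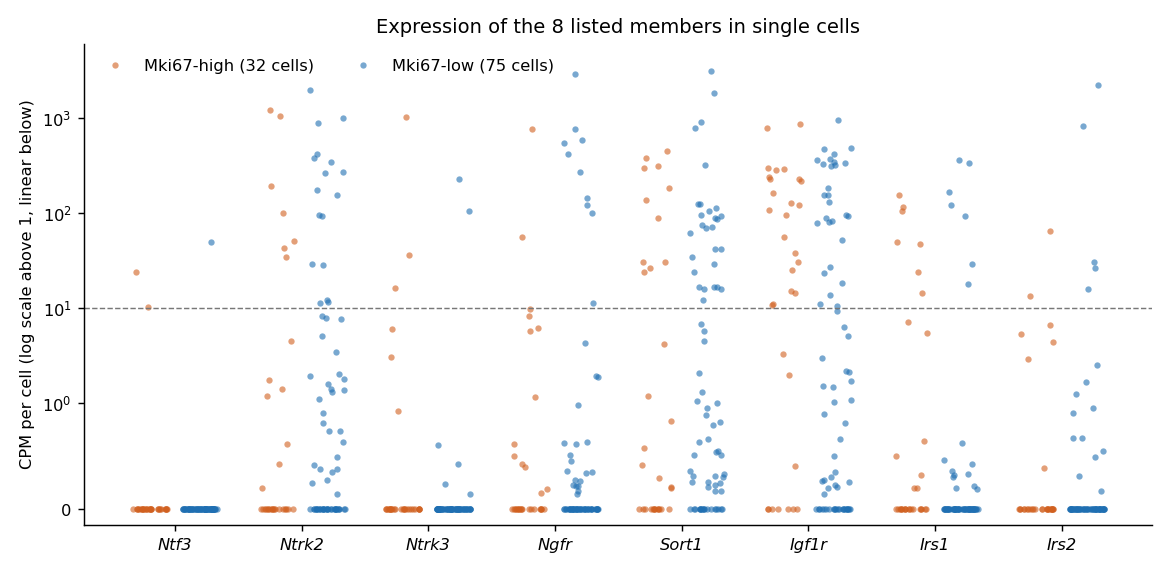
Expression of the 8 listed members in each Mki67-high (orange, 32 cells) and Mki67-low (blue, 75 cells) cell, in CPM on an axis that is logarithmic above 1 and linear below; the dashed line marks 10 CPM. Most cells lie at 0 for Ntf3, Ntrk3 and Irs2, and Igf1r has 22 Mki67-high and 28 Mki67-low cells at or above the line.

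Levels were compared between members per kilobase of exon in sums over all cells of a library group, since reads came from whole transcripts. Ngfr averaged 13.2 ± 13.6 CPM per kb (SD, n = 6), Sort1 10.7 ± 5.18, Igf1r 5.68 ± 2.77, Irs2 5.09 ± 11.8, Ntrk2 4.37 ± 3.07, Irs1 2.32 ± 2.18, Ntf3 0.505 ± 0.610 and Ntrk3 0.460 ± 1.06. Every step between neighbours in this order was smaller than the SD of its difference over library groups. Sort1 lay above Igf1r in 5 of 6 groups, while Ngfr lay above Sort1 in 3 and Irs2 above Ntrk2 in 1. By the median over groups, Sort1 came first (11.4 CPM per kb) and Irs2 fell to 0.320. Exon lengths were taken from GENCODE vM21 on GRCm38 (mm10), the build named for the files.

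The neurotrophin ligand that could be examined, Ntf3 (chromosome 6, 126101412 to 126166910, minus strand), was nearly silent. It was present in 3 cells, at 49.5 CPM in a Mki67-low cell of group 2, 24.3 CPM in a Mki67-high cell of group 6 and 10.3 CPM in a Mki67-high cell of group 3. The last 2 of these are the cells with over 10000 genes, and each carried 8 astroglial genes at 50 CPM or more. Their part in the Ntf3 signal was not tested. All 3 Ntf3 cells also reached 10 CPM for Ntrk2 and for Igf1r, but in cells of usual depth this left a single cell. Ntf3 was too rare for the test across genes.

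Ntrk2, which encodes TrkB (chromosome 13, 58806569 to 59133970, plus strand), was carried at 10 CPM or more by 7 of 32 Mki67-high cells (21.9%, 11 to 38.8) and 17 of 75 Mki67-low cells (22.7%, 14.7 to 33.3). The difference in this share averaged 0.844 ± 11.3 percentage points over library groups (SD, n = 6), far inside its spread (exact two-sided sign-flip p = 0.844). With at least 1 count the shares were 14 of 32 and 43 of 75 cells, lower in Mki67-high cells in 5 of 6 groups, with a difference of -16.96 ± 21.9 points that was also within the spread (exact p = 0.156). Summed per library group 1 to 6, Ntrk2 was 19.8, 0, 9.20, 62.0, 115 and 241 CPM in Mki67-high cells and 45.3, 63.2, 107, 40.7, 204 and 118 CPM in Mki67-low cells. The ranges overlapped, and the sums were lower in Mki67-high cells in 4 of 6 groups. The fold change was -0.69 ± 1.30 (log2, SE; edgeR quasi-likelihood adjusted p = 0.928). Along Dcx the shares over all cells lay close, but library groups varied widely and in both directions. Ntrk2 reached 10 CPM in 12 of 55 Dcx-high and 12 of 54 Dcx-low cells, a difference over groups of 0.418 ± 24.3 points. Summed per group 1 to 6, it was 23.9, 68.2, 92.6, 13.1, 0.677 and 261 CPM in Dcx-high cells. In Dcx-low cells it was 49.7, 0.676, 10.7, 68.1, 239.5 and 4.63 CPM. The fold change was 0.18 ± 1.38 (edgeR adjusted p = 0.9996).

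As a description over cells, Ntrk2 appeared beside astroglial genes as well as without them. It reached 10 CPM in 4 of the 6 cells with 5 or more astroglial genes (66.7%) and in 20 of the 103 other cells (19.4%). TrkB, in a form without the kinase domain, is a known astroglial product. The strongest Ntrk2 cell, a Mki67-low cell of group 5 with 1963 CPM, had none of the listed astroglial genes at 50 CPM, and the next 3 had 1, 1 and 0. The fifth, of group 6 with 887 CPM, had 8. Gene counts did not separate the forms of the receptor, and genes that overlap Ntrk2 on either strand could share reads with it.

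Ntrk3, which encodes TrkC (chromosome 7, 78175959 to 78738012, minus strand), shared most of its cells with Ntrk2. Its 5 cells at 10 CPM or more held 1035, 231, 105, 36.3 and 16.2 CPM. Of these, 4 (80.0%) were also Ntrk2 cells, beside 24 of all 109 cells (22.0%). The same 4 made up 16.7% of the Ntrk2 cells, and 3 shared cells remained without cells of unusual depth. The strongest Ntrk3 cell, a Mki67-high cell of group 6, had 1040 CPM of Ntrk2 beside 1035 CPM of Ntrk3. Of the 5 cells, 3 carried 5 or more astroglial genes, and the part of these genes in the overlap was not tested. Sums of Ntrk3 were 212 CPM in Mki67-high and 17 CPM in Mki67-low cells of group 6, but at most 3.95 CPM in either class of the other groups. Its fold change of 2.91 ± 2.53 was within error (edgeR adjusted p = 0.833).

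Ngfr, which encodes p75 (chromosome 11, 95568818 to 95587735, minus strand), was a gene of a few strong cells. Of the 12 cells at 10 CPM or more, 10 were above 100 CPM, and only 2 of the 12 were Mki67-high. The sums per group were 0.150, 0.640, 57.5, 0, 1.36 and 14.5 CPM in Mki67-high cells and 33.9, 183, 64.1, 0, 46.7 and 35.0 CPM in Mki67-low cells. Ngfr was thus lower in Mki67-high cells in 5 groups and absent from both classes in group 4, yet the ranges overlapped. The fold change was -2.74 ± 1.92 (edgeR adjusted p = 0.781), and it became -4.57 without group 3 and -1.64 without group 2. The shares at 10 CPM or more, 2 of 32 cells (6.25%, 1.73 to 20.1) and 10 of 75 cells (13.3%, 7.41 to 22.8), differed by -8.15 ± 10.2 points over groups (exact two-sided sign-flip p = 0.125). With any count the shares were 40.6% and 38.7%. After thinning of each cell to 1000000 counts the order was the opposite of that at 10 CPM, with a count in 10 of 32 and 16 of 75 cells, higher in Mki67-high cells in 5 groups and equal in 1, by 9.98 ± 11.2 points (exact p = 0.0625; 0.397 after adjustment over 9084 genes). Along Dcx, Ngfr was 12.7% in Dcx-high and 9.26% in Dcx-low cells at 10 CPM or more, and 1 Dcx-low cell of group 2 with 2913 CPM led its sums.

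Sort1, which encodes sortilin (chromosome 3, 108284082 to 108361511, plus strand), had the largest difference between Dcx classes of the 8 members in the share of cells with at least 1 count. At 10 CPM or more, and after thinning, its differences of 10.7 and 18.4 points were smaller in size than those of Irs1. At least 1 count was found in 45 of 55 Dcx-high cells (81.8%, 69.7 to 89.8) and 31 of 54 Dcx-low cells (57.4%, 44.2 to 69.7). The share was higher in Dcx-high cells in 5 of 6 groups and equal in group 2, by 27.9 ± 15.1 points (exact two-sided sign-flip p = 0.0625, where 0.03125 is the smallest this design allows). Summed Sort1 was 276, 37.0, 95.7, 136, 31.6 and 205 CPM in Dcx-high cells of groups 1 to 6 and 2.71, 22.8, 50.2, 70.2, 44.1 and 16.3 CPM in Dcx-low cells. The Dcx-high sum was the larger in 5 groups, group 5 being the exception, though the ranges overlapped. The fold change was 2.03 ± 1.05, with an unadjusted p of 0.071 that did not survive adjustment over all genes (edgeR adjusted p = 0.973).

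In the share of cells with at least 1 count, Sort1 kept this direction within Mki67-low cells, split again at their own median Dcx of 1781 CPM. A count was found in 32 of 38 Dcx-high and 25 of 37 Dcx-low cells, and the share was higher in Dcx-high cells in 6 of 6 groups, by 19.4 ± 16.8 points (exact two-sided sign-flip p = 0.03125, the smallest possible; 1.0 after adjustment over the genes tested). Without the cells carrying astroglial genes it was higher in 5 of 6 (exact p = 0.0625). As background, 0.703% of 6682 genes tested were higher in every group by this measure. At 10 CPM or more, however, the shares were 13 of 38 and 15 of 37 cells, the opposite order. After thinning to 1000000 counts, a count remained in 25 of 38 and 21 of 37 cells. This share was higher in Dcx-high cells in 4 groups and lower in 2, by 12.3 ± 17.7 points (exact p = 0.156). The mean of log2(CPM + 1) was higher in 3 groups and lower in 3 (exact p = 0.531). Of the 76 cells with a Sort1 count, 37 lay under 10 CPM. Between Mki67 classes a Sort1 count was found in 59.4% of Mki67-high and 76% of Mki67-low cells, a difference of -18.1 ± 19.6 points over groups (exact two-sided sign-flip p = 0.125). Sort1 reached 10 CPM in 34.4% and 37.3% of these cells, with a fold change of -0.45 ± 1.18 (edgeR adjusted p = 0.955).

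Igf1r, the IGF1 receptor (chromosome 7, 67952827 to 68233668, plus strand), was found more often at an appreciable level in Mki67-high cells. It reached 10 CPM in 22 of 32 Mki67-high cells (68.8%, 51.4 to 82.0) and 28 of 75 Mki67-low cells (37.3%, 27.3 to 48.6). Per library group 1 to 6 the share was 100%, 75%, 62.5%, 33.3%, 50% and 100% in Mki67-high cells, and 40.0%, 50%, 50%, 26.7%, 20% and 38.5% in Mki67-low cells. It was higher in Mki67-high cells in 6 of 6 groups, by 32.6 ± 23.4 points (exact two-sided sign-flip p = 0.03125, the smallest possible). The ranges over groups overlapped, and group 4 rested on 1 of 3 cells. After adjustment over the 9084 genes tested the p-value was 0.444, and 5.92% of these genes were also higher in every group. Without the 3 cells of unusual depth the shares were 20 of 30 and 28 of 75 cells, and without the 6 cells carrying astroglial genes 20 of 28 and 28 of 73, again higher in 6 of 6 groups each time.

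The result for Igf1r depended on the level asked for. With at least 1 count the shares were 78.1% and 69.3%, a difference of 10.7 ± 9.86 points (exact two-sided sign-flip p = 0.125). The mean of log2(CPM + 1) was 4.79 in Mki67-high and 2.97 in Mki67-low cells, a difference of 1.82 ± 2.41 that was positive in 5 of 6 groups (exact p = 0.0938). In sums, Igf1r was 574, 38.9, 60.4, 8.29, 83.5 and 156 CPM in Mki67-high cells and 43.9, 144, 120, 38.3, 50.8 and 73.0 CPM in Mki67-low cells. The Mki67-high sum was larger in 3 groups and smaller in 3, and group 1 lay far above all others. The fold change of 1.07 ± 1.05 (edgeR adjusted p = 0.853) became -0.59 without group 1. After thinning to 1000000 counts, a count remained in 24 of 32 and 42 of 75 cells, higher in 5 of 6 groups and equal in 1 (exact p = 0.0625).

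**Figure D2:**
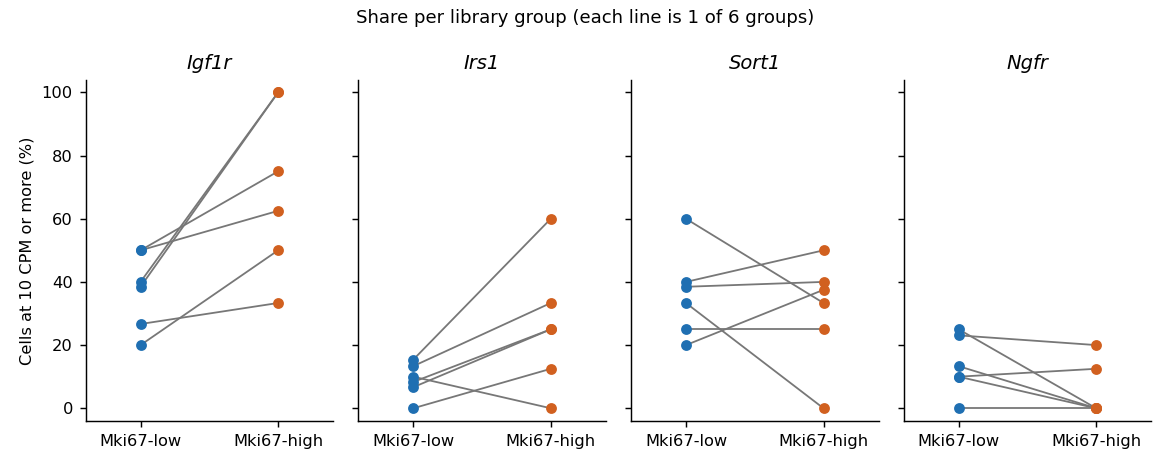
Share of cells at 10 CPM or more (%) for Igf1r, Irs1, Sort1 and Ngfr in Mki67-low (blue) and Mki67-high (orange) cells, with 1 line for each of the 6 library groups. All 6 Igf1r lines rise from Mki67-low to Mki67-high cells, 5 of 6 Irs1 lines rise, and the lines of Sort1 and Ngfr run both ways.

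Igf1r did not run simply with the order from division to differentiation. Among Mki67-high cells with Dcx below the median of all cells, 18 of 25 reached 10 CPM (72.0%, 52.4 to 85.7). With Dcx at or above it, 4 of 7 Mki67-high cells did (57.1%, 25.05 to 84.18). Among Mki67-low cells the share was 5 of 29 (17.2%, 7.60 to 34.6) with Dcx below the median and 23 of 46 (50%, 36.1 to 63.9) with Dcx at or above it. The lowest share thus lay in cells low for both genes. The split of Mki67-low cells at their own Dcx median gave 18 of 38 Dcx-high and 10 of 37 Dcx-low cells, higher in Dcx-high cells in 5 of 6 groups by 19.3 ± 27.3 points, which was within the spread (exact two-sided sign-flip p = 0.156). The fold change in that split was 0.84 ± 1.27 (edgeR adjusted p = 0.999), and over all cells Dcx-high against Dcx-low gave 0.26 ± 1.07 (edgeR adjusted p = 0.997).

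**Figure D3:**
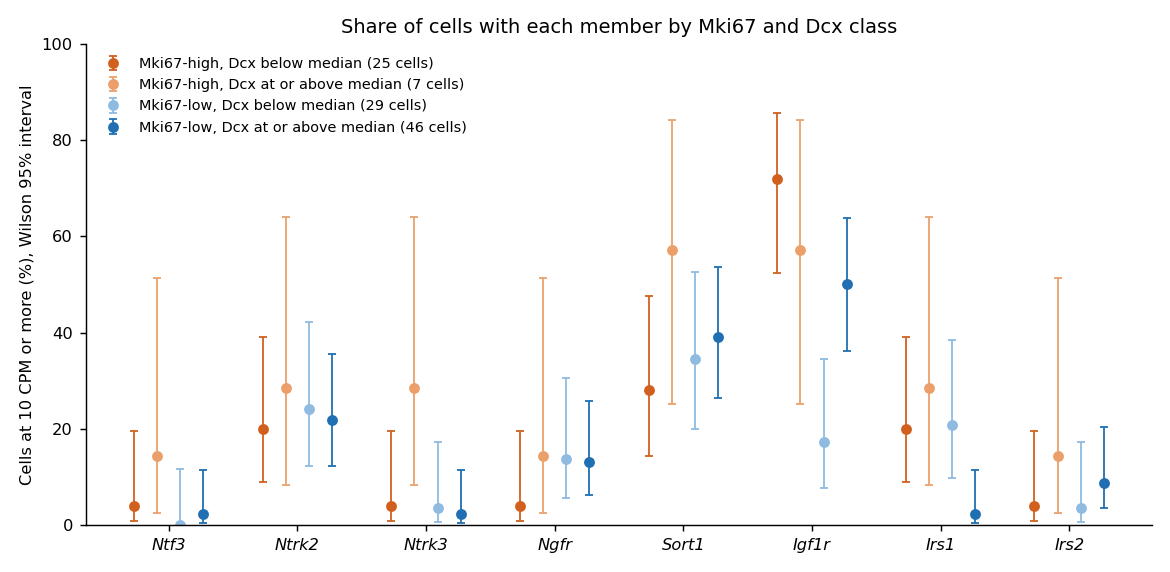
Share of cells at 10 CPM or more (%), with Wilson 95% intervals for counting error, for each member in 4 classes set by Mki67 and by the median Dcx of all cells. For Igf1r the share is 72.0% in Mki67-high cells with low Dcx and 57.1% (4 of 7 cells) in those with high Dcx. It is 17.2% in cells low for both and 50% in Mki67-low cells with high Dcx. For Irs1 the share in the last class is 2.17%.

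Irs1, a docking protein below the IGF1 and insulin receptors (chromosome 1, 82233101 to 82291416, minus strand), was found more often in Mki67-high and in Dcx-low cells. It reached 10 CPM in 7 of 32 Mki67-high cells (21.9%, 11 to 38.8) and 7 of 75 Mki67-low cells (9.33%, 4.60 to 18). The share was higher in 5 of 6 groups, by 17 ± 17.5 points (exact two-sided sign-flip p = 0.0625). Without the 3 cells of unusual depth the shares were 6 of 30 and 7 of 75 cells, higher in 4 of 6 groups (exact p = 0.125). Without the 6 cells carrying astroglial genes they were 6 of 28 and 7 of 73 cells, again higher in 4 of 6 groups (exact p = 0.125). When every cell of at least 1000000 counts was thinned to that number, a count remained in 11 of 32 and 9 of 75 cells, higher in 6 of 6 groups by 24.7 ± 16.5 points (exact p = 0.03125, the smallest possible; 0.397 after adjustment over 9084 genes). As background, 6.59% of genes were higher in every group by this measure. Unthinned, a count was found in 14 of 32 and 17 of 75 cells (exact p = 0.0938). The summed level differed less, at 25.2 ± 21.9 CPM in Mki67-high and 17.8 ± 23.4 CPM in Mki67-low cells (SD, n = 6), with a fold change of 0.66 ± 1.63 (edgeR adjusted p = 0.952) that became 0.048 without group 1 and 1.36 without group 6.

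Along Dcx, Irs1 was lower in Dcx-high cells on each measure, within error. It reached 10 CPM in 5 of 55 Dcx-high and 11 of 54 Dcx-low cells, a difference of -14.9 ± 21.8 points (exact two-sided sign-flip p = 0.219) that became -8.21 without group 6. Summed Irs1 was 3.85, 23.7, 0.798, 0.0863, 0 and 2.66 CPM in Dcx-high cells and 17.8, 17.4, 4.14, 76.5, 1.44 and 110 CPM in Dcx-low cells. Dcx-low sums were the larger in 5 of 6 groups, and group 2, where both were similar, was the exception. The fold change was -2.87 ± 1.78 (edgeR adjusted p = 0.973). In Mki67-low cells with Dcx at or above the median of all cells, 1 of 46 reached 10 CPM (2.17%, 0.385 to 11.3), as against 6 of 29 with Dcx below it (20.7%, 9.85 to 38.4) and 5 of 25 Mki67-high cells with Dcx below it (20%, 8.86 to 39.1). The difference within Mki67-low cells, split at their own median, was -13.5 ± 17.5 points (exact p = 0.125). The mean of log2(CPM + 1) differed by -1.11 ± 1.49 between Dcx classes (exact p = 0.0938).

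**Figure D4:**
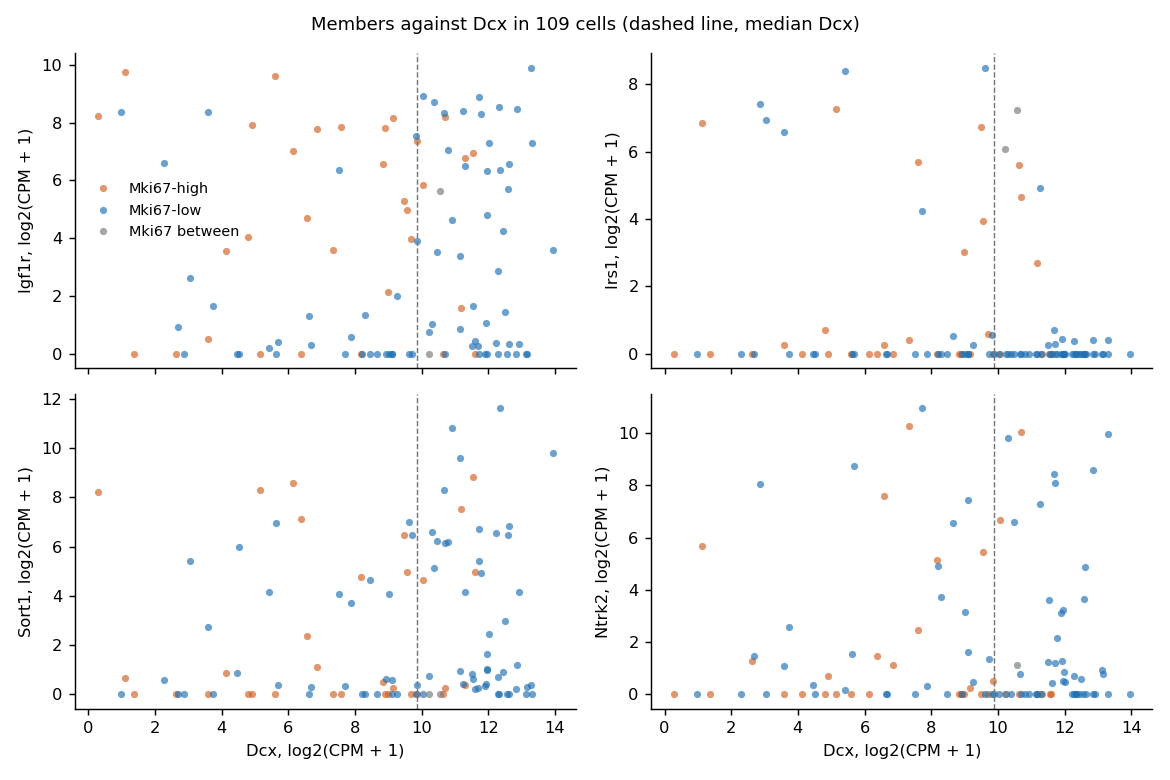
Igf1r, Irs1, Sort1 and Ntrk2 against Dcx in each of 109 cells, both as log2(CPM + 1), coloured by Mki67 class; the dashed line marks the median Dcx. Irs1 reached 10 CPM in 6 of the 29 Mki67-low cells left of the line and 1 of the 46 to its right. Ntrk2 has 12 cells at 10 CPM or more on each side of the line.

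Irs2, the second substrate (chromosome 8, 10984681 to 11008458, minus strand), was mostly the signal of 2 Mki67-low cells of group 1, with 2250 and 826 CPM. The next cell held 64.4 CPM. Sums over all cells were 185 CPM in group 1 and 0 to 3.79 CPM in the other 5 groups. The fold change of -4.15 ± 2.44 between Mki67 classes (edgeR adjusted p = 0.732) became 1.02 without group 1. Irs2 reached 10 CPM in 2 of 32 Mki67-high and 5 of 75 Mki67-low cells, and in 5 of 55 Dcx-high and 2 of 54 Dcx-low cells (exact two-sided sign-flip p = 0.125 for Dcx). Both Irs2 and Igf1r reached 10 CPM in 4 cells, 57.1% of the Irs2 and 7.84% of the Igf1r cells. Both Irs1 and Igf1r did in 8 cells, 50% of the Irs1 and 15.7% of the Igf1r cells.

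In the test across genes no member tested passed an adjusted p of 0.01 in any comparison. The filter on low counts kept Ntf3 out of every comparison and Ntrk3 out of both Dcx comparisons. It also kept Irs1 and Irs2 out of the comparison within Mki67-low cells. Between Mki67 classes 0.022% of genes tested (2 of 9084) passed, the mitotic genes Tacc3 and Cdc20, both higher in Mki67-high cells. Between Dcx classes 0% of 9129 genes passed, and 0% of 6682 genes within Mki67-low cells, with 418 and 345 genes at an unadjusted p under 0.05. DESeq2 passed 18 and 71 genes in these comparisons, and 172 between Mki67 classes, with no member among them. It gave no adjusted p, however, for Igf1r, Ntrk3 and Irs2 between Mki67 classes and for Irs2 between Dcx classes, so these could not pass there. The biological coefficient of variation of the sums was 171.5% between Mki67 classes. The members' adjusted p-values, where an alternative gave one, ran from 0.434 to 0.999 for Mki67, from 0.303 to 1.0 for Dcx and from 0.279 to 1.0 for Dcx within Mki67-low cells.

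**Figure D5:**
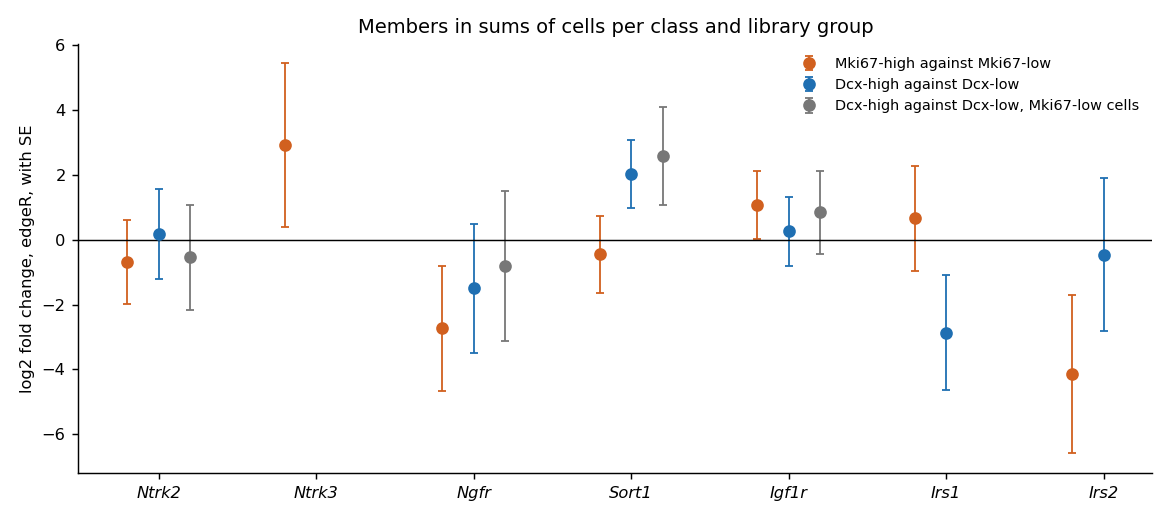
Log2 fold change with its SE for each member tested, from sums of counts per class and library group, between Mki67 classes (orange), Dcx classes (blue) and Dcx classes within Mki67-low cells (grey). The widest bars belong to Ntrk3 and Irs2, and the largest positive value for Dcx is that of Sort1 (2.03 over all cells and 2.58 within Mki67-low cells); no value passed adjustment.

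The rest of both pathways was read from 8 lists of 140 genes in all, members included, of which 116 were in the table. Between Mki67 classes 81 were tested and 0 passed in either direction. At an unadjusted p under 0.05, 4 were lower in Mki67-high cells, all 4 among the 20 Trk and p75 adaptors tested, whose median fold change was -0.48 beside -0.18 over all genes. As background, 4.39% of all genes were lower at that p. Maged1, an adaptor of p75, was 619 ± 174 CPM in Mki67-high and 1600 ± 702 CPM in Mki67-low cells, lower in 6 of 6 groups by 1.48 on the log2 scale with SE 0.42 (edgeR adjusted p = 0.416). Plcg1, the phospholipase that binds Trk receptors, was 26.7 ± 34.2 and 149.7 ± 103.6 CPM, again lower in 6 of 6 groups (edgeR adjusted p = 0.669). Frs3, Kidins220 and Rasa1 were lower in all 6 groups as well, with fold changes of -5.12, -1.81 and -1.43 (edgeR adjusted p = 0.561, 0.768 and 0.745). Frs3 lay near the floor, at 0.227 ± 0.2655 CPM in Mki67-high and 6.06 ± 13.25 CPM in Mki67-low cells. Maged1, Plcg1 and these genes were named because their sums moved the same way in every group. Their 6 of 6 groups is thus the rule of choice and no support for a difference.

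The 6 IGF ligands, receptors and binding proteins tested, Igf1r among them, all had positive fold changes in Mki67-high cells, with a median of 0.70 beside -0.18 over all genes. Only Igfbp5, an IGF binding protein named here after its values were seen, had an unadjusted p under 0.05, where 2.94% of all genes were higher at that p. It was 475 ± 780 CPM in Mki67-high and 38.0 ± 26.8 CPM in Mki67-low cells, higher in 5 of 6 groups (edgeR adjusted p = 0.452). The 23 genes of PI3K, AKT and mTOR had 12 positive and 11 negative values. The 17 of RAS and MAPK had 6 positive and 11 negative values. The insulin receptor substrates and adaptors (5 tested), the neurotrophins and their processing (2) and the early response genes (4) had 2, 0 and 2 positive values, and of the 4 neurotrophin receptors and sortilin relatives tested 1 was positive.

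Between Dcx classes 83 list genes were tested and 0 passed. At an unadjusted p under 0.05, 4 were higher in Dcx-high cells, all among the 23 Trk and p75 adaptors tested (median 0.86 beside 0.02 over all genes), where 2.36% of all genes were higher at that p. Of the insulin receptor substrates and adaptors 1 was lower at that p, as were 2.22% of all genes. Sos1, the exchange factor that loads RAS below both Trk and IGF receptors, was 234 ± 179 CPM in Dcx-high and 56.0 ± 54.6 CPM in Dcx-low cells, higher in 6 of 6 groups (2.33 ± 0.89; edgeR adjusted p = 0.973). The kinases Akt2 and Araf were also higher in 6 of 6 groups, with 2.71 ± 1.39 and 1.19 ± 1.07 (edgeR adjusted p = 0.973 and 0.990). Here and within Mki67-low cells, genes were again named for moving the same way in every group, so that count is no support. Positive values were found for 5 of the 6 IGF genes tested, 15 of 23 genes of PI3K, AKT and mTOR, 10 of 17 of RAS and MAPK, 3 of 6 insulin receptor substrates and adaptors, 2 of 3 neurotrophin receptors and sortilin relatives, 2 of 4 early response genes, and the 1 neurotrophin-processing gene tested. Within Mki67-low cells 69 were tested and 0 passed. At an unadjusted p under 0.05, 5 were higher and 1 was lower in Dcx-high cells, beside 2.38% and 2.78% of all genes. The kinases Mapk7 and Araf were higher in Dcx-high cells in 6 of 6 groups with 3.33 ± 1.58 and 2.31 ± 1.52 (edgeR adjusted p = 0.967 and 0.999). There the median fold changes of the lists were 0.56 (18 adaptors tested), -0.55 (3 receptors), -0.29 (5 IGF genes) and 2.76 (only 2 substrates and adaptors). They were 0.30 (23 genes of PI3K, AKT and mTOR), 0.35 (15 of RAS and MAPK) and 1.29 (3 early response genes), beside 0.03 over all genes. Irs1 and Irs2 were not tested in this split, so the 2.76 holds neither.

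Across the 109 cells no member followed another closely. The largest Spearman correlation of log2(CPM + 1) between members with a count in 20 or more cells was that of Ngfr and Igf1r (0.310; 0.297 without the 3 cells of unusual depth), and 6 cells reached 10 CPM for both, 50% of the Ngfr and 11.8% of the Igf1r cells. Irs1 had the largest correlation with Mki67 (0.273) and the lowest with Dcx (-0.167), Sort1 the highest with Dcx (0.159). Mki67 and Dcx themselves gave -0.420. Cells share their library group and differ in depth, so these values are descriptions. The genes most like each member were Gm5499, Znf512b and Mapre2 for Ntrk2 (0.397, 0.374 and 0.370), Pkig, Gm10125 and Fbxo42 for Ngfr (0.427, 0.421 and 0.408), Gm9752, Uty and St7 for Sort1 (0.410, 0.403 and 0.379), and Gm5915, Mllt4 and 2700049A03Rik for Igf1r (0.351, 0.349 and 0.348). For Irs1 they were Ticrr, Tead2 and Psmg4 (0.450, 0.448 and 0.440), and for Irs2 Pcdhb19, Pcdh19 and Tfb1m (0.576, 0.553 and 0.543).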

How the data were processed

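Single cells of a Percoll-purified GCP preparation (109, captured on C1 chips) were sequenced by Smart-seq, which reads whole transcripts. The authors aligned reads to mm10 with STAR 2.4.1d and counted them per gene with HTSeq 0.6.1, and the deposited table holds these raw counts, with no row of unassigned reads. Each gene in it has a count in at least 3 cells. Whether counting used strand is not given in the sources used here. CPM was computed as 1000000 times the count over the cell's total. Cells of 1 library group are not independent, so raw counts were summed per class and library group (12 sums of 3 to 15 cells, 9376998 to 66286508 counts, for Mki67). The sums were tested with edgeR 4.0.16 in R 4.3.3 (TMM, filterByExpr, quasi-likelihood, Benjamini-Hochberg adjustment over all genes tested, threshold 0.01), as were all adjusted p-values credited to edgeR. The SE of an edgeR fold change was computed back from the test, as its absolute value over the square root of the F statistic. Shares and mean log2 values were tested with exact two-sided sign-flip tests over the 6 library groups (SciPy and NumPy; smallest p 0.03125). The edgeR script was tested on simulated data. Recovery was required only for large changes at a spread far below that of these sums. The check therefore does not show how many changes could be found here.

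Alternatives were DESeq2 1.42.0, limma-voom (limma 3.58.1), other size factors, no filter, library group as a block, other class limits, thinning to 1000000 counts (1 cell left out), a pseudocount of 10 CPM in place of 1, and leaving out library groups or cells of unusual depth (under 100000 counts or over 10000 genes, 3 cells) or with astroglial genes (6 cells). Leaving out such cells for single shares was chosen after seeing the data. Of the pathway lists, genes are named that passed the test or moved the same way in every library group (up to 5 each way by fold change), except 1 gene that is not reported here. Igfbp5 is named outside this rule. For likeness, the 3 genes of highest Spearman correlation are named for members with a count in 20 or more cells. Members and lists were chosen with earlier results of these data known. All columns were matched to a sample.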

Additional observations from a re-analysis of the deposited data

Results flagged for a closer look

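The CPM of each member in the sums of a class was compared over the 6 library groups. In 56 sets of 6, 25 values stood apart from the rest of their set by Dixon's 95% criterion. The nominal rate of 1 in 20 holds for normally distributed values in independent sets, and does not apply here. These sums were led by a few cells, and the same cells enter several sets. A member with counts in only 1 library group of a set is flagged at any level. The 25 values are therefore a list of uneven sums, and an excess over chance was not tested. No explanation was tested.

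Over all cells, Ntrk3 stood at 79.2 CPM in library group 6 and Irs2 at 184.8 CPM in group 1. Between Mki67 classes, the Mki67-high sums that stood apart were Igf1r at 574.2 CPM in group 1, Ngfr at 57.5 CPM in group 3, and Ntf3 at 7.84 CPM and Ntrk3 at 212.3 CPM in group 6. The Mki67-low sums were Irs2 at 241.3 CPM in group 1, Ngfr at 183.2 CPM and Ntf3 at 2.15 CPM in group 2, and Ntrk3 at 17.02 CPM in group 6.

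Between Dcx classes, the Dcx-high sums were Irs1 at 23.7 CPM in group 2, Irs2 at 134.5 CPM in group 1, and Ntrk2 at 261.4 CPM and Ntrk3 at 132.8 CPM in group 6. The Dcx-low sums were Irs2 at 219.0 CPM in group 1, Ngfr at 383.9 CPM in group 2, Ntf3 at 2.49 CPM in group 3 and Ntrk2 at 239.5 CPM in group 5.

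Within Mki67-low cells, the Dcx-high sums were Irs1 at 4.47 CPM and Irs2 at 156.2 CPM in group 1, Ntf3 at 3.67 CPM in group 2 and Ntrk3 at 0.159 CPM in group 6. The Dcx-low sums were Irs2 at 312.9 CPM in group 1, Ngfr at 442.5 CPM in group 2 and Ntrk2 at 347.4 CPM in group 5.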

How the results depend on the processing

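Of 555 recomputed values of single members, 496 kept their direction and their side of the threshold, 55 changed sign, 3 moved past the threshold and 1 fell back from it. Sign-flip tests without a library group rest on 5 groups, where the smallest p is 0.0625. Those values could therefore change sign but not pass the threshold, and their part in the 496 shows direction only. The cause was not tested. At this number of cells, 0 of 32 or 0 of 75 cells with a gene would allow shares of up to 9.38% or 4.0%.

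The 2 genes passing between Mki67 classes became 6 with DESeq2 size factors, 172 with DESeq2, 6 with limma-voom, 6 at an adjusted p under 0.05, 1 without cells of unusual depth, 1 without cells carrying astroglial genes, 0 with Mki67 at 100 CPM or more against a count of 0, and 0 to 1 without single library groups (0 without group 2, 4, 5 or 6). The counts of 0 for Dcx and for Dcx within Mki67-low cells became 18 and 71 with DESeq2, and stayed 0 without single library groups. Members with an unadjusted sign-flip p under 0.05 between Mki67 classes were 0 by share with a count, 1 at 10 CPM or more and 1 after thinning, where 5.92% and 6.59% of 9084 genes were higher in every group by the last 2 measures. By mean log2 CPM they were 0 in either comparison over all cells, and 1 between Dcx classes without cells of unusual depth (Irs1, exact p = 0.03125), where 3.43% of 9129 genes were lower in every group with all cells kept.

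Library group as a replicate block gave 0 genes between Mki67 classes and 0 in both Dcx comparisons. Same-group sums deviated together by 0.0173 to 0.125 (correlation), with 5 of 6 correlating best with their own group in each comparison. The block turned Igf1r to -0.27 and Irs2 to 0.72 (Mki67), Ngfr to 0.14 and Irs2 to 1.11 (Dcx), and Ngfr to 3.80 (Dcx within Mki67-low). With limma-voom, Irs2 turned to 0.37 (Mki67) and 1.81 (Dcx), and Ngfr to 0.77 (Dcx) and 1.79 (Dcx within Mki67-low). Against a Mki67 count of 0, Ntrk2 turned to 0.15 and Sort1 to 1.46. Between the highest and lowest Dcx classes of equal size (3 classes), Ngfr turned to 2.58.

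At 10 CPM or more, the differences in share turned to 0.844, -8.15 and -0.694 points for Ntrk2, Ngfr and Irs2 (Mki67) and to 0.418 and 1.30 for Ntrk2 and Ntrk3 (Dcx). After thinning, Ngfr turned to -8.13 (Dcx). For mean log2 CPM (Mki67), Irs2 turned to -0.063 with a pseudocount of 10 CPM and to -0.11 without cells of unusual depth, and Ntf3 to -0.079.

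Without single library groups, the fold change of Ntrk2 (Mki67) ran from -1.23 to -0.29, that of Sort1 (Dcx) from 1.32 to 2.37, that of Irs1 (Dcx) from -4.79 to -2.12, and that of Igf1r (Dcx within Mki67-low) from 0.52 to 1.33. Log2 fold changes that changed sign ran from -0.91 to 0.026 (Sort1), -0.59 to 1.60 (Igf1r) and -4.99 to 1.02 (Irs2) for Mki67, from -0.75 to 1.54 (Ntrk2), -2.40 to 0.88 (Ngfr), -0.22 to 1.03 (Igf1r) and -0.53 to 1.34 (Irs2) for Dcx, and from -1.28 to 0.76 (Ntrk2) and -1.63 to 2.28 (Ngfr) for Dcx within Mki67-low cells. Shares ran from -1.77 to 3.0 (Ngfr) and -0.833 to 5.83 points (Irs2) for Mki67, and from -0.556 to 3.48 (Ntf3) and -6.26 to 3.38 (Ntrk3) for Dcx. Mean log2 CPM ran from -0.0069 to 0.27 (Ntf3), -0.50 to 0.073 (Ntrk2), -0.45 to 0.15 (Sort1) and -0.066 to 0.22 (Irs2) for Mki67, and from -0.52 to 0.59 (Ntrk2), -0.32 to 0.27 (Ntrk3), -0.60 to 0.45 (Ngfr) and -0.030 to 0.79 (Igf1r) for Dcx.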

Other observations

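The 2 cells between the Mki67 classes, both of library group 2, carried Irs1 at 151 and 66.4 CPM. In the second, the shallowest cell of the table with 15071 counts in all, the value is that of a single count, as is its Mki67 of 66.4 CPM. The first also carried Igf1r at 48.5 CPM, and Ntrk2, Ntrk3 and Ngfr at 1.21, 0.728 and 0.728 CPM.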
